A study of Mus musculus with 24 samples.

Results

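The exercise effect common to both times is the difference between exercised (RUN) and sedentary (SED) mice, averaged over ZT15 and ZT3, in inguinal white adipose tissue, the subcutaneous fat pad of the groin. It was taken over all 24 of the 24 libraries, 12 from exercised and 12 from sedentary mice, and over all 16233 genes listed. The 4 groups were ZT15 RUN, ZT15 SED, ZT3 RUN and ZT3 SED, with 6 libraries each. All were male C57BL6 mice aged 10 to 11 weeks. RUN mice exercised for 1 hour, and SED mice spent the hour on an artificial treadmill as a sham. ZT (zeitgeber time) counts hours from lights on: ZT15 lies in the early active phase, in the dark with red light used for handling, and ZT3 in the early rest phase with the lights on. The labels place each sample at ZT15 or ZT3 and do not give the interval between the bout and sampling.

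White adipose tissue stores triglyceride and releases fatty acids when catecholamines raise cAMP in adipocytes. Acute exercise raises circulating catecholamines and glucocorticoids. In many tissues these signals, and growth factor signals through MAP kinases, switch on short-lived transcripts within the hour, among them kinases, phosphatases and adaptor proteins that in turn limit the same pathways. Glucocorticoids in mice also follow the day, with a peak near the onset of activity, so a common effect has to be read over 2 different baselines.

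Signal here means the deposited normalized value, equal to CPM after TMM scaling, and changes are differences of log2(signal + 1) with their standard errors (SE), so that 1 corresponds to a 2-fold change in a well expressed gene and less than the true change in a low one. The libraries held 18.5 to 34.7 M (mega) recovered reads, with a median of 29.2 M. Since the labels do not say how the mice of a group were housed or processed, a p-value here speaks of the spread between these samples, which may be partly technical. The B cell gene Cd79a stood at 99.2 in library 4 of ZT3 RUN and at 54.6 and 14.1 in libraries 5 and 3 of ZT15 SED, where the other 21 libraries had at most 1.33. A pair of ZT3 libraries went against their group in Tsc22d3 (Gilz), a glucocorticoid target that is not among the called genes. It belongs to a set chosen with earlier results of these data known. Library 1 of ZT3 RUN was at 127, where the other ZT3 RUN libraries lay between 300 and 395. Library 1 of ZT3 SED was at 390, where the other ZT3 SED libraries lay between 129 and 189. These values put the labels of both libraries in doubt, and the doubt is not confined to 1 gene. Library 1 of ZT3 SED was also the highest ZT3 SED library in 19 of the 20 higher called genes (17.5% of all genes). Library 1 of ZT3 RUN was the lowest ZT3 RUN library in 15 of the 20 (10.5% of all genes). The sample titles number these libraries 10 and 11. The values cannot tell exchanged labels from a difference between mice, and neither was tested. The labels were kept as given, so every ZT3 and averaged value rests on them. The results are also given without each of these libraries.

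Averaged over both times, 23 of the 16233 genes (0.142%) passed limma's adjusted p of 0.05. Of these, 20 were higher in exercised mice (0.123% of genes tested) and 3 were lower (0.0185%). Named genes make up 16 of the 23: Sik1, Dusp1, Errfi1, Paqr3, Fzd5, Vdr, Tiparp, Gadd45g, Apold1, Letm2, Mtcl1, Ppid and Ist1 were higher, and Snai2, Lratd2 and Zfp647 lower. The averaged change passed 1 on the log2 scale in 6 of the 20 higher genes. The adjusted p of the 23 lay between 0.0375 and 0.0466, close under the threshold. At an unadjusted p under 0.05 there were 1257 genes (7.74%), 783 higher (4.82%) and 474 lower (2.92%). The 23 calls depend on the model. In limma without an interaction term 0 genes passed (smallest adjusted p 0.0984). With neighbouring title numbers as a replicate block 0 also passed (smallest adjusted p 0.0803).

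The members of this small set that act as brakes on signalling cascades were Sik1, Dusp1, Errfi1 and Paqr3. Sik1 (ENSMUSG00000024042) is a salt-inducible kinase, itself a target of cAMP signalling, that keeps CREB coactivators out of the nucleus. Its signal had a low, median and high of 80.7, 156 and 209 in ZT15 RUN, against 35.8, 42.4 and 59.8 in ZT15 SED. At ZT3 the signal was 38.3, 101 and 129 in RUN, against 30.0, 46.0 and 120 in SED. Every ZT15 RUN library was above every ZT15 SED library, while at ZT3 the lowest exercised library was library 1 and the highest sedentary library was also library 1. The averaged change was 1.16 ± 0.21 (limma adjusted p = 0.0375), made of 1.63 ± 0.30 at ZT15 and 0.69 ± 0.30 at ZT3.

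Dusp1 (ENSMUSG00000024190), a phosphatase that inactivates MAP kinases, was at 76.5, 85.9 and 166 (low, median, high) in ZT15 RUN, against 25.9, 38.6 and 53.6 in ZT15 SED. At ZT3 it was at 53.2, 98.5 and 141 in RUN, against 50.7, 69.4 and 101 in SED. The ZT15 groups did not overlap and the ZT3 groups did. Dusp1 rose by 0.85 ± 0.17 averaged over both times (adjusted p = 0.0434), with 1.31 ± 0.24 at ZT15 and 0.39 ± 0.24 at ZT3. Sedentary mice had a lower median at ZT15 than at ZT3, so the ZT3 comparison started from another level.

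Errfi1 (ENSMUSG00000028967), which binds the EGF receptor and inhibits it, reached 167, 299 and 415 in ZT15 RUN, against 43.6, 74.2 and 96.7 in ZT15 SED. Its ZT3 values were 68.6, 262 and 437 in RUN, against 90.1, 135 and 318 in SED. At ZT3 both the lowest and the highest of the 12 libraries were exercised ones. The averaged change was 1.31 ± 0.27 (adjusted p = 0.0466), 1.98 ± 0.38 at ZT15 and 0.63 ± 0.38 at ZT3.

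Paqr3 (ENSMUSG00000055725), a Golgi protein that holds Raf kinase away from the plasma membrane, was at 5.59, 8.99 and 12.1 in ZT15 RUN, against 3.84, 4.49 and 4.82 in ZT15 SED. In ZT3 RUN it was at 3.475, 5.63 and 7.24, against 2.65, 3.78 and 6.37 in ZT3 SED. Paqr3 rose by 0.61 ± 0.12 (adjusted p = 0.0434), and its change at ZT3 alone, 0.39 ± 0.17, had an unadjusted limma p of 0.0342. Paqr3 overlaps Bmp2k on the other strand and Dusp1 overlaps Ergic1. The strand setting of the counting is not given in the sources used here, so reads of overlapping genes cannot be told apart. Bmp2k and Ergic1 had averaged changes of 0.01 and 0.03.

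**Figure D1:**
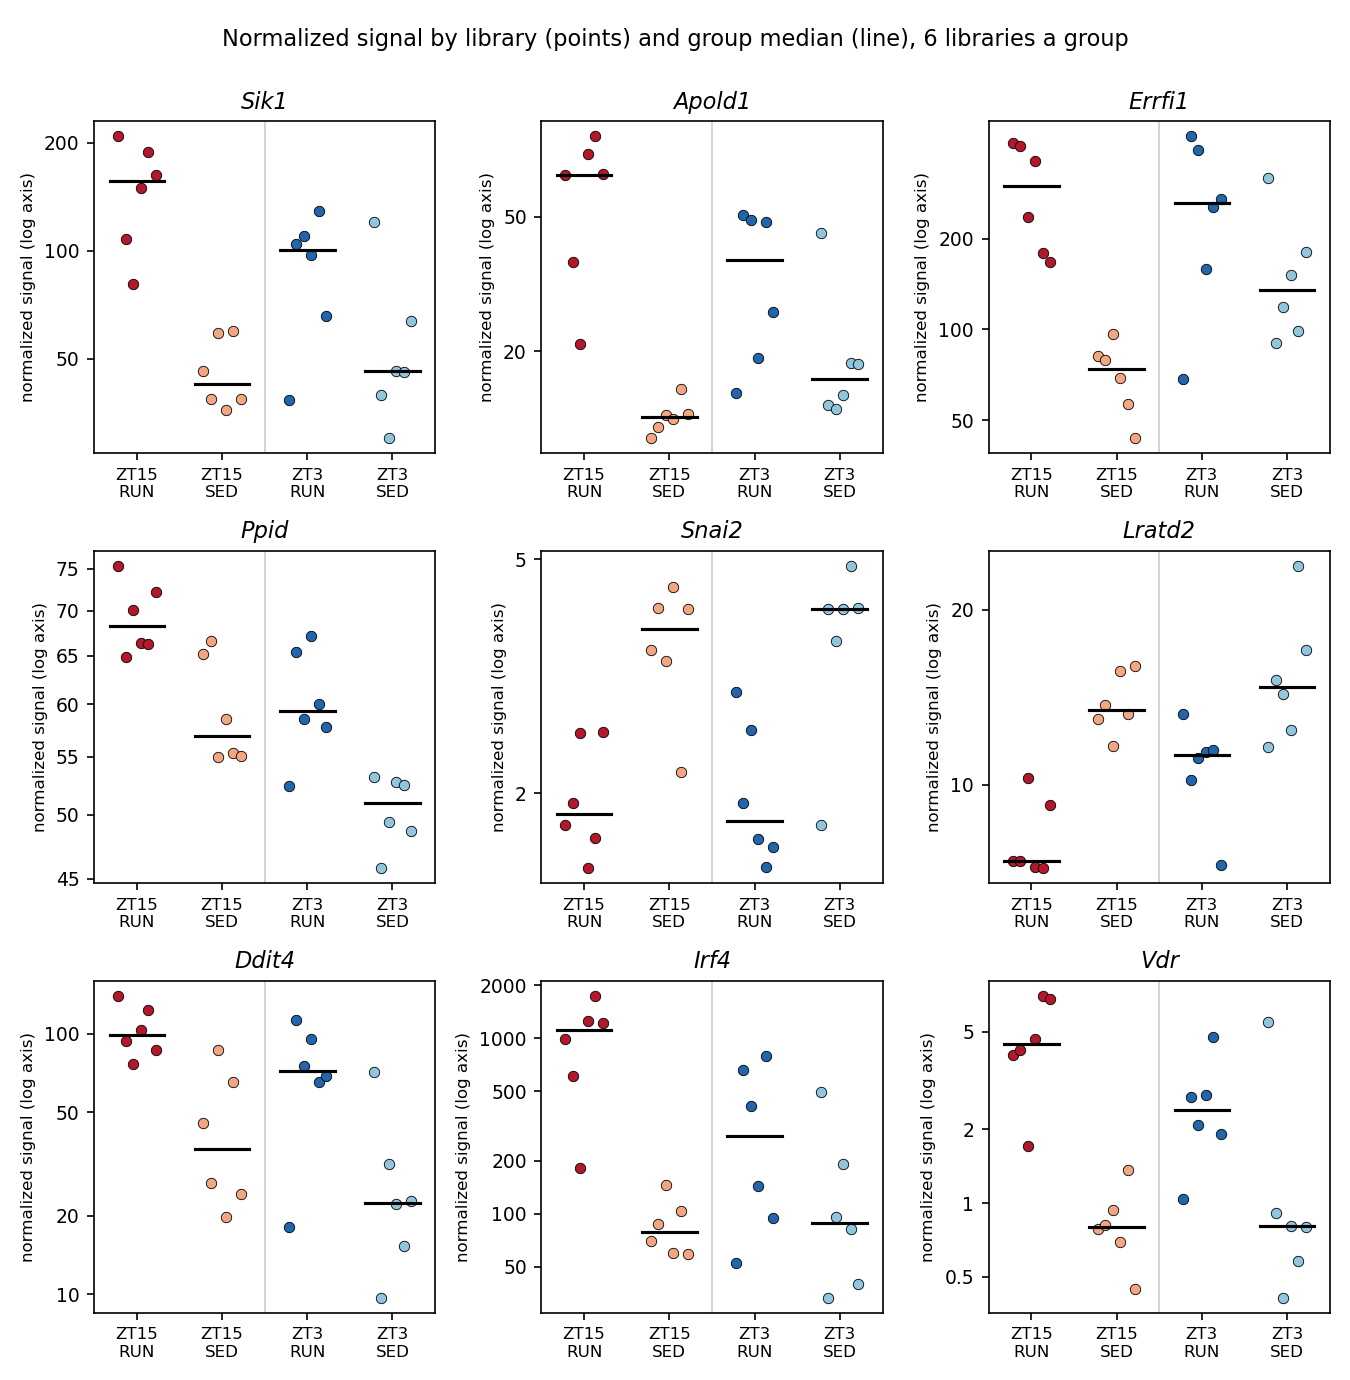
Signal of 9 genes in each of the 24 libraries (points) with the group median (line), on a logarithmic axis. RUN groups stand left of SED groups within each time. For Sik1, Apold1 and Errfi1 the 6 ZT15 RUN points lie above the 6 ZT15 SED points, and at ZT3 the RUN and SED points of each of these genes overlap.

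Dusp1, Errfi1 and Paqr3 share a feature in their RefSeq promoters that the selection did not use, and their sequences are shown for that reason. The window covers 250 bases before to 50 bases after the annotated start in GRCm38.p6, and the build of the deposited counts is not given in the sources used here. Each of the 3 windows holds the palindrome TGACGTCA, the full cAMP response element to which CREB binds. The full element was found in 3 of the 13 higher genes with a promoter in the table (23.1%), against 398 of 12249 genes (3.25%). Sequences run 5′ to 3′ on the strand of the gene, with TGACG on either strand in capitals.
Dusp1 at chr17:26508423-26508722 on the minus strand: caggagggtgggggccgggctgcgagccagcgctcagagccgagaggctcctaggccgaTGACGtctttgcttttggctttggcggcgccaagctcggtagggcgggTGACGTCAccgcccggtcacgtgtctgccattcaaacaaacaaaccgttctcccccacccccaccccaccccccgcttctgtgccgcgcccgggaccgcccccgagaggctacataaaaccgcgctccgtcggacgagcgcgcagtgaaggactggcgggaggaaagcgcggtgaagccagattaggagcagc
Errfi1 at chr4:150854820-150855119 on the plus strand: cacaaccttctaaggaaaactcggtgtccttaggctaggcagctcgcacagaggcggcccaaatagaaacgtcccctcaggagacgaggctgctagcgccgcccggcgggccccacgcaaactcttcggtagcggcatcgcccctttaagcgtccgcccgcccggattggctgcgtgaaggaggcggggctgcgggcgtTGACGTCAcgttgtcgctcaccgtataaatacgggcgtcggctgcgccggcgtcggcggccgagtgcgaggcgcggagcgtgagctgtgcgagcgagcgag
Paqr3 at chr5:97111547-97111846 on the minus strand: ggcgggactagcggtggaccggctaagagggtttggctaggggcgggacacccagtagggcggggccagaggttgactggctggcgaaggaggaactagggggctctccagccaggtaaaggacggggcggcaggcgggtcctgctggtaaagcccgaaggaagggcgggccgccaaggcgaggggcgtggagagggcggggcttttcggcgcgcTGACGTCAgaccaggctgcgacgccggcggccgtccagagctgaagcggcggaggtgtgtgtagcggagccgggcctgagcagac
In Dusp1 the element starts 143 bases before the transcription start and a further TGACG lies at -191, whereas in Errfi1 and Paqr3 the element lies closer, at -51 and -35. Errfi1 has a further annotated start 5′ of this one whose window holds no TGACG. Its core TGACG, on either strand and counted also inside the full element, was in 6 of the 13 promoters (46.2%), against 32.5% of all promoters. The AP-1 motif TGANTCA was in 1 of 13 (7.69%), against 6.83% of all, and the E-box CACGTG in 2 of 13 (15.4%), against 11.0%. The palindromic glucocorticoid response element was in none of the 13, against 2 of 12249 promoters (0.0163%). At that rarity its absence from 13 promoters says nothing about glucocorticoid sites, and looser forms were not searched. These are matches of letters in a short window, given as a description with no test.

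A pair of receptors, Fzd5 and Vdr, were also higher. Fzd5 (ENSMUSG00000045005), a Frizzled receptor for Wnt ligands, was at 33.6, 52.6 and 96.8 in ZT15 RUN, against 16.4, 19.8 and 29.5 in ZT15 SED. The ZT3 RUN libraries had 10.2, 15.4 and 19.2, against 10.2, 11.1 and 14.6 in ZT3 SED. Fzd5 rose by 0.83 ± 0.14 averaged over both times (adjusted p = 0.0375), most of it at ZT15, where the change was 1.35 ± 0.20, against 0.30 ± 0.20 at ZT3. The difference between the times had an unadjusted p of 0.00118 and did not pass the adjustment (limma adjusted p = 0.583).

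Vdr (ENSMUSG00000022479), the vitamin D receptor, is a low gene here, with 10 to 171 reads per library and a median of 44. It was at 1.70, 4.45 and 7.03 in ZT15 RUN, against 0.446, 0.797 and 1.37 in ZT15 SED. Its ZT3 RUN values were 1.03, 2.39 and 4.79, against 0.411, 0.804 and 5.50 in ZT3 SED. The highest ZT3 SED value is library 1, and the next in that group was 0.909, under the lowest ZT3 RUN value. Vdr rose by 1.12 ± 0.22 averaged over both times (adjusted p = 0.0421), 1.57 ± 0.31 at ZT15 and 0.67 ± 0.31 at ZT3. Without library 1 of ZT3 SED its adjusted p was 0.00207.

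Tiparp (ENSMUSG00000034640), an ADP-ribosyltransferase that represses the aryl hydrocarbon receptor, rose by 0.57 ± 0.11 (adjusted p = 0.0411). Its medians were 164 in ZT15 RUN and 83.7 in ZT15 SED, and 97.7 in ZT3 RUN and 75.6 in ZT3 SED. The change was 0.98 ± 0.15 at ZT15 and 0.17 ± 0.15 at ZT3, with an unadjusted p of 0.00109 for the difference between times. Tiparp overlaps 4931440P22Rik, whose averaged change of 0.27 did not pass.

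Gadd45g (ENSMUSG00000021453), a stress protein that binds cell cycle regulators and activates stress kinases, was at 25.7, 50.9 and 88.0 in ZT15 RUN, against 8.85, 11.3 and 27.4 in ZT15 SED. Its ZT3 RUN values were 15.6, 34.8 and 47.3, against 10.0, 18.4 and 36.0 in ZT3 SED. A single ZT15 SED library reached into the ZT15 RUN range. Gadd45g rose by 1.21 ± 0.24 (adjusted p = 0.0434), with 1.77 ± 0.35 at ZT15 and 0.65 ± 0.35 at ZT3. Its relative Gadd45a had an averaged change of -0.25 and Gadd45b of 0.11, neither past the adjustment.

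Apold1 (ENSMUSG00000090698), an early response gene of vascular endothelium, had the largest averaged change of the 23 genes. Its signal was 21.1, 66.5 and 86.2 in ZT15 RUN, against 11.1, 12.8 and 15.5 in ZT15 SED. The ZT3 RUN libraries had 15.1, 37.2 and 50.7, against 13.6, 16.6 and 44.9 in ZT3 SED, where the next highest SED library was at 18.5. Apold1 rose by 1.34 ± 0.24 (adjusted p = 0.0375), 1.97 ± 0.34 at ZT15 and 0.70 ± 0.34 at ZT3. Of the endothelial markers 9 of 14 were above 0 (49.1% of all genes) and their median averaged change was 0.05. None passed in limma, where 3 had an unadjusted p under 0.05 (7.74% of all genes), edgeR called 0 and DESeq2 called Sox17. Their summed signal was 1048 to 1534 in ZT15 RUN, 959 to 1239 in ZT15 SED, 840 to 1318 in ZT3 RUN and 915 to 1408 in ZT3 SED. Their part in the Apold1 change was not tested. In bulk tissue, more cells of a type and more RNA per cell cannot be told apart.

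Mitochondrial, cytoskeletal and trafficking genes completed the named higher set. Letm2 (ENSMUSG00000037363), a protein of the mitochondrial inner membrane family of LETM1, rose by 0.72 ± 0.14 (adjusted p = 0.0421), with medians of 32.4 in ZT15 RUN and 12.2 in ZT15 SED, and of 15.1 in ZT3 RUN and 12.2 in ZT3 SED. Mtcl1 (ENSMUSG00000052105), a microtubule crosslinking factor, rose by 0.60 ± 0.12 (adjusted p = 0.0421), with medians of 7.58 in ZT15 RUN and 3.76 in ZT15 SED, and of 6.88 in ZT3 RUN and 5.89 in ZT3 SED. At ZT3 alone the change was 0.29 ± 0.20 for Letm2 and 0.16 ± 0.17 for Mtcl1, and the interaction had an unadjusted p of 0.00605 and 0.00104.

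The changes of Ppid and Ist1 were small at both times. Ppid (ENSMUSG00000027804) encodes cyclophilin 40, a cochaperone of Hsp90 in steroid receptor complexes. Its signal was 64.9, 68.3 and 75.4 in ZT15 RUN, against 55.01, 57.0 and 66.6 in ZT15 SED, and 52.4, 59.3 and 67.2 in ZT3 RUN, against 45.8, 51.0 and 53.2 in ZT3 SED. At ZT3 5 of the 6 RUN libraries were above all SED libraries, the exception being library 1 of ZT3 RUN. Ppid rose by 0.24 ± 0.05 (adjusted p = 0.0421), 0.22 ± 0.07 at ZT15 and 0.25 ± 0.07 at ZT3. Ist1 (ENSMUSG00000031729), a modulator of the ESCRT-III membrane-scission machinery, rose by 0.20 ± 0.04 (adjusted p = 0.0445), with 0.25 ± 0.06 at ZT15 and 0.14 ± 0.06 at ZT3. It overlaps Pkd1l3 on the other strand, whose change of 0.13 did not pass.

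All 3 lower genes are named. Snai2 (ENSMUSG00000022676), the Slug transcription factor that represses epithelial genes, was at 1.49, 1.85 and 2.54 in ZT15 RUN, against 2.17, 3.80 and 4.48 in ZT15 SED. In ZT3 RUN it was at 1.499, 1.80 and 2.98, against 1.77, 4.11 and 4.87 in ZT3 SED. Snai2 fell by 0.63 on the log2 scale (SE 0.12, adjusted p = 0.0411), and its change was -0.62 ± 0.17 at ZT15 and -0.63 ± 0.17 at ZT3, the nearest to equal among the 23. All 6 RUN libraries lay below the SED median at each time. It had 28 to 148 reads per library, with a median of 70.5.

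Lratd2 (ENSMUSG00000072568), a protein with an LRAT-like domain, was at 7.21, 7.41 and 10.3 in ZT15 RUN, against 11.7, 13.5 and 16.0 in ZT15 SED, without overlap. The ZT3 RUN libraries had 7.28, 11.3 and 13.2, against 11.6, 14.7 and 23.8 in ZT3 SED. Its averaged change was -0.60 ± 0.10 (adjusted p = 0.0375), -0.71 ± 0.14 at ZT15 and -0.49 ± 0.14 at ZT3. Zfp647 (ENSMUSG00000054967), a zinc finger protein, had an averaged change of -0.37 ± 0.08 (adjusted p = 0.0434), with -0.55 ± 0.11 at ZT15 and -0.20 ± 0.11 at ZT3, at 25 to 88 reads per library.

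The 7 called genes without a descriptive symbol were all higher, and 5 of them lie in or across a coding gene. Gm19221 and Gm3086, processed pseudogenes with averaged changes of 0.99 and 0.80, overlap Sav1, a Hippo pathway scaffold whose own change of 0.65 had an adjusted p of 0.052. Gm16159, with 0.95, is antisense to Fgfr1 (0.30, not passing) and next to Letm2. Gm11513, with 0.76, is antisense to Pdk2 (0.25, not passing), and Gm17230, with 1.24, lies in Pde7b (0.35, not passing). The others were 4833411C07Rik, with 0.80, and the long non-coding RNA Gm37294, with 0.31 at a median of 8.5 reads per library. Without a known strand setting, the reads of these 5 and of their host genes cannot be told apart. Neighbours and overlaps were read from the GENCODE M21 annotation.

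How much of the averaged effect was present at each time differed between the genes. Among the 20 higher genes the median change was 1.31 at ZT15 and 0.31 at ZT3, and among the 3 lower genes -0.62 at ZT15 and -0.49 at ZT3. Over all genes the median was 0.00 at ZT15 and 0.01 at ZT3. The mean of both times decided these calls, so their direction at either time is a description. The same holds for their p-values and overlap at either time, whose contrast with all genes follows in part from the selection. Of the 23, 21 also passed the threshold at ZT15 alone, where 104 genes did (0.641%), and the exceptions were Snai2 and Ppid. At ZT3 alone 8 of the 23 had an unadjusted p under 0.05, against 2.27% of all genes. RUN and SED did not overlap in 18 of the 23 at ZT15 (1.75% of all genes did not) and in 0 of the 23 at ZT3 (0.0739% of all genes).

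**Figure D2:**
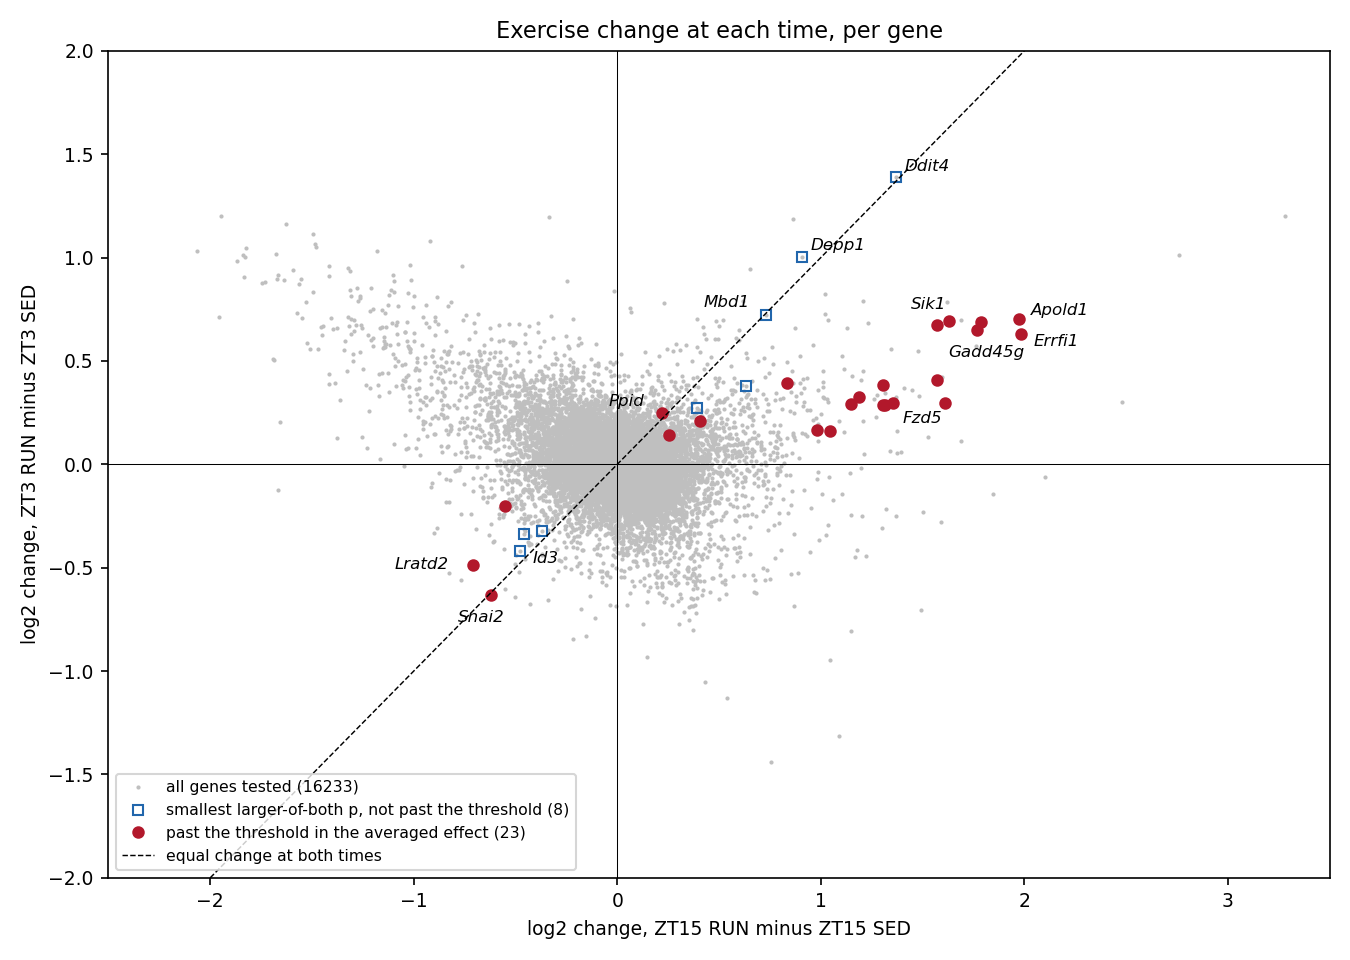
Log2 change at ZT15 (RUN minus SED, horizontal axis) against that at ZT3 (RUN minus SED, vertical axis) for 16233 genes, with the 23 called in the averaged effect in red and 8 genes of small p at both times as open squares. Most red points lie far below the dashed line of equal change, while Ppid, Snai2, Ddit4, Mbd1 and Depp1 lie near it.

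The interaction of exercise with time had an unadjusted p under 0.05 in 16 of the 23 called genes (7.84% of all genes) and in none of the 16233 an adjusted p under 0.05 in limma, where 1273 genes had an unadjusted p under 0.05. edgeR called 0 interactions and DESeq2 239. Among named genes with an unadjusted averaged p under 0.05 and expression above the median, the smallest interaction p belonged to Lrrc32, Tiparp, Fzd5, Thbs1 and Sema4c. Lrrc32, which tethers latent TGF-beta, had a change of 1.01 at ZT15 and -0.14 at ZT3 (unadjusted interaction p of 0.000174). Thbs1, a matrix glycoprotein that activates TGF-beta, had 2.10 at ZT15 and -0.06 at ZT3 (unadjusted p of 0.00156), and Sema4c, a semaphorin, had 0.69 and -0.07 (unadjusted p of 0.00161). Averaged over both times Lrrc32 had 0.43, Thbs1 1.02 and Sema4c 0.31, and none of these averages passed the adjusted threshold.

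A stricter reading of a common effect asks for a change at each time. With the larger of the p-values at ZT15 and ZT3 as the test, 78 genes had an unadjusted p under 0.05 with the same sign at both times (0.481% of genes tested), 49 higher and 29 lower, and 16 had opposite signs. The 78 are 3.80% of the genes with an unadjusted p under 0.05 at ZT15 and 21.2% of those at ZT3. After adjustment 0 genes passed in limma, and edgeR and DESeq2 also called 0 by this rule. Of the 23 genes called on average, 8 were among the 78.

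The 10 named genes of smallest larger p and expression above the median were Ppid, Ddit4, Mbd1, Depp1, Sgms1, Lpar6, Ist1, Zfp267, Irak2 and Id3. Apart from Ppid and Ist1, their averaged changes did not pass the adjusted threshold. Ddit4 (Redd1), an inhibitor of mTORC1 induced by stress and glucocorticoids, was at 76.6, 98.7 and 140 in ZT15 RUN, against 19.8, 36.1 and 86.8 in ZT15 SED. In ZT3 RUN it was at 18.2, 71.8 and 113, against 9.70, 22.5 and 71.6 in ZT3 SED. Its change was 1.37 ± 0.43 at ZT15 and 1.39 ± 0.43 at ZT3, an average of 1.38 ± 0.31 (limma adjusted p = 0.0657). The groups overlapped at both times, and at ZT3 the lowest RUN and the highest SED value again belonged to library 1 of each group.

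Depp1, a FoxO target linked to autophagy, had 0.91 at ZT15 and 1.00 at ZT3 (adjusted p of the average 0.0958). Mbd1, a methyl-CpG binding protein, had 0.73 and 0.72 (0.0909), Sgms1, a sphingomyelin synthase, 0.39 and 0.27 (0.0657), and Irak2, a kinase of interleukin-1 receptor signalling, 0.63 and 0.38 (0.0627). Lower in exercised mice at both times were Lpar6, a lysophosphatidic acid receptor, with -0.46 at ZT15 and -0.34 at ZT3, Id3, an inhibitor of bHLH factors, with -0.48 and -0.42, and Zfp267, a zinc finger gene, with -0.37 and -0.32. Their averages had adjusted p-values of 0.0883, 0.158 and 0.133.

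Just outside the threshold stood Nr4a3, Sav1, Hdc, Fosl2 and Lipg, each with an adjusted p of 0.052. Nr4a3, an orphan nuclear receptor induced by cAMP, had an averaged change of 1.89 ± 0.39, with medians of 46.4 in ZT15 RUN and 3.99 in ZT15 SED, and of 17.1 in ZT3 RUN and 6.35 in ZT3 SED. Hdc, which makes histamine, had 1.01 ± 0.21, Fosl2, an AP-1 subunit, 0.90 ± 0.19, and Lipg, endothelial lipase, 1.00 ± 0.21. Lipg was the most even of them, with 1.21 ± 0.30 at ZT15 and 0.79 ± 0.30 at ZT3. Irf4, a transcription factor that in adipocytes takes part in lipolysis and thermogenesis, had the largest averaged change of all genes, 2.24 ± 0.48, and an adjusted p of 0.0577. Its signal was 182, 1107 and 1744 in ZT15 RUN, against 59.2, 78.3 and 145 in ZT15 SED. In ZT3 RUN it was 52.2, 276 and 788, against 33.2, 88.6 and 492 in ZT3 SED. A large change thus went with a large spread, and the ZT3 RUN libraries ran from below the SED median to above the highest SED library.

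**Figure D3:**
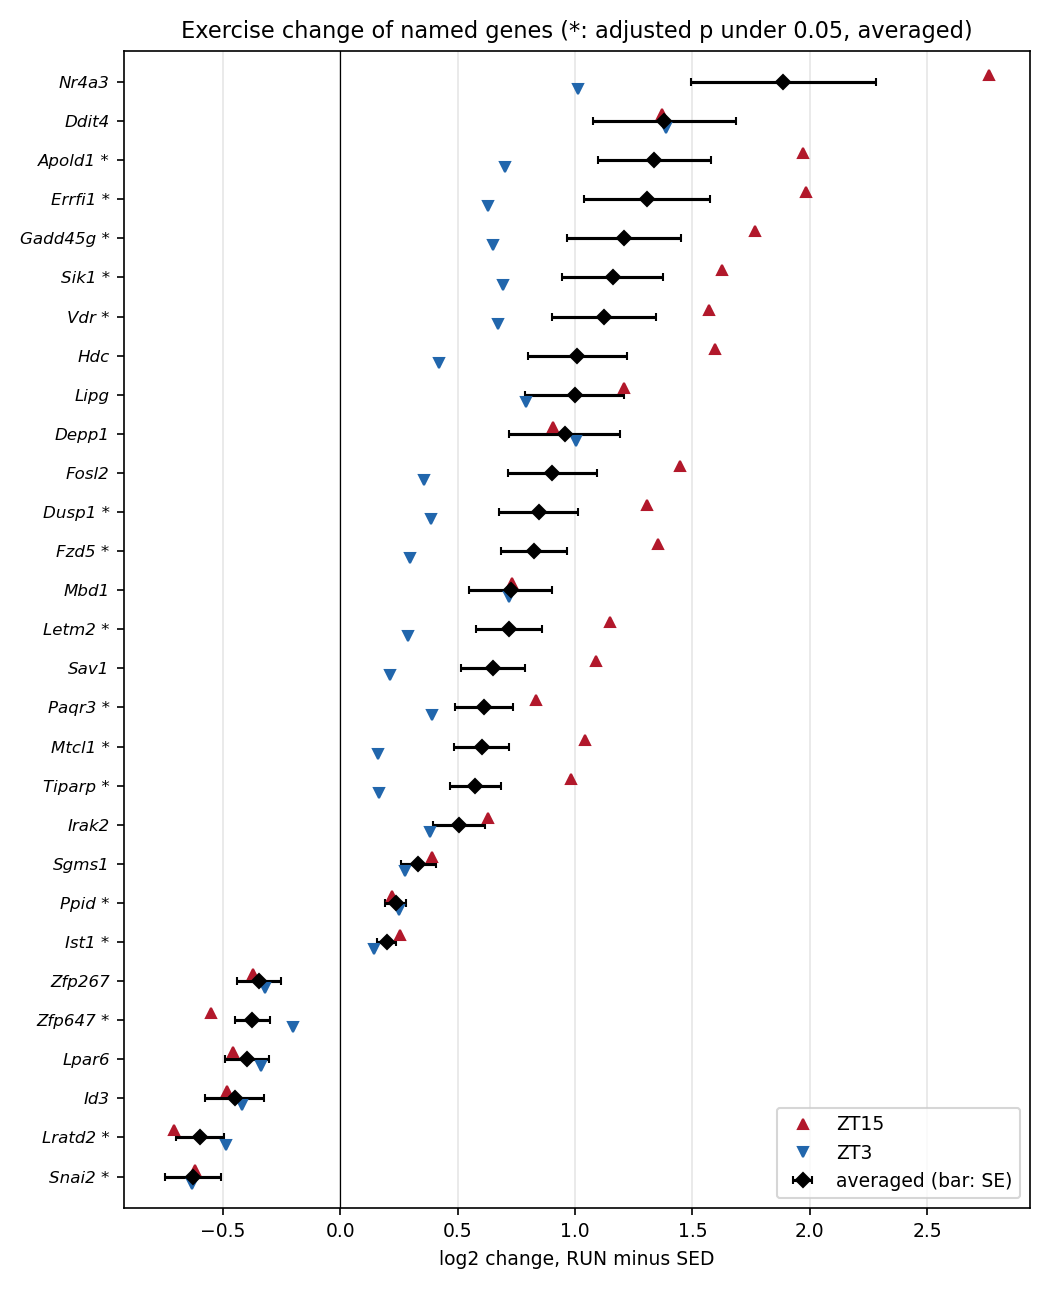
Log2 change of named genes: the averaged effect with its SE (black diamonds), the change at ZT15 (red up-triangles) and at ZT3 (blue down-triangles), with an asterisk where the averaged adjusted p is under 0.05. Red markers lie to the right of blue ones in the higher called genes other than Ppid.

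Glucocorticoid-responsive genes leaned towards higher signal in exercised mice. All 18 tested members had an averaged change above 0, against 49.1% of all genes, and their median was 0.62, against -0.00 over all genes. Dusp1 and Errfi1 passed the threshold, and 12 of the 18 had an unadjusted p under 0.05 (66.7%), against 7.74% of all genes. The list's median was 0.68 at ZT15 and 0.40 at ZT3. This list was chosen with earlier results of these data known, so its contrast with all genes is a description. Tsc22d3, the anti-inflammatory leucine zipper protein, had 0.59 ± 0.17 (adjusted p = 0.181), with medians of 544 in ZT15 RUN and 424 in ZT15 SED, and of 342 in ZT3 RUN and 172 in ZT3 SED. Fkbp5, a cochaperone that restrains the glucocorticoid receptor, had 0.61 ± 0.21 (adjusted p = 0.324), and Per1 0.66 ± 0.20 (0.202). The metallothioneins Mt1 and Mt2, with 0.80 and 1.17, were named after their values were seen.

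**Figure D4:**
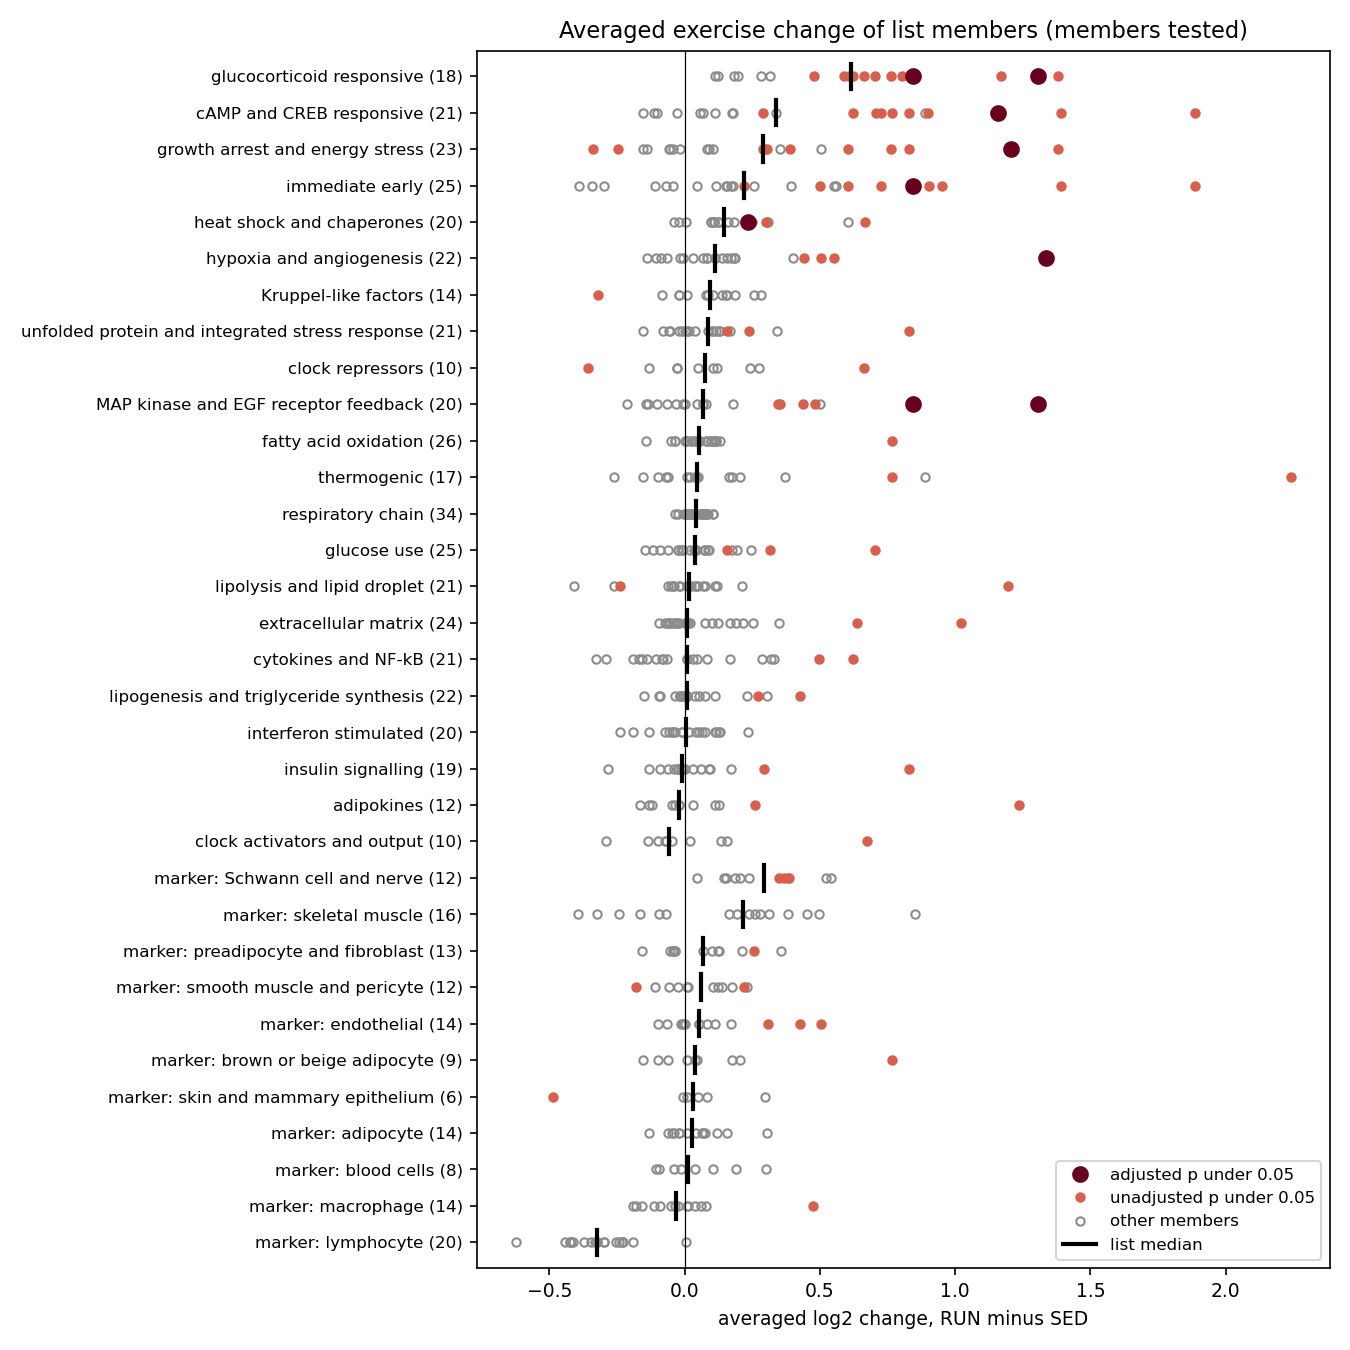
Averaged log2 change (RUN minus SED) of the tested members of each gene list (points, filled at an unadjusted p under 0.05 and large at an adjusted p under 0.05), with the list median as a bar and the number of members in brackets. The median of the glucocorticoid-responsive genes is at 0.62, and the lists of fuel use lie at 0.05 or less.

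Other regulatory lists were mixed. Over all genes, 49.1% were above 0 and 7.74% had an unadjusted p under 0.05. Of 21 cAMP and CREB responsive genes, 17 were above 0, 10 had an unadjusted p under 0.05 and Sik1 alone passed, with a median of 0.34. Nr4a1 had 1.39 ± 0.36 (adjusted p = 0.108), made of 2.48 at ZT15 and 0.30 at ZT3. Of 25 immediate early genes, 19 were above 0 and 9 had an unadjusted p under 0.05, with Dusp1 alone past the threshold. Their median was 0.22, from 0.87 at ZT15 and -0.21 at ZT3. Fos, the AP-1 subunit, shows that contrast, with 1.15 at ZT15 and -0.81 at ZT3, an average of 0.17 ± 0.36 (adjusted p = 1) and an unadjusted interaction p of 0.0121.

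Feedback genes of MAP kinase and EGF receptor signalling split. Of 20 tested, 13 were above 0 (49.1% of all genes) and the median was 0.07. Dusp1 and Errfi1 passed, and 6 had an unadjusted p under 0.05 (7.74% of all genes). These are the same Dusp1 and Errfi1 as in the glucocorticoid list, and Dusp1 is also the immediate early gene that passed. For growth arrest and energy stress the median was 0.29, with 15 of 23 genes above 0, Gadd45g past the threshold, and 12 at an unadjusted p under 0.05, 10 of these higher and 2 lower. Chaperones had 18 of 20 above 0 with a median of 0.14, Ppid alone passing and 3 at an unadjusted p under 0.05. Of 22 hypoxia and angiogenesis genes 16 were above 0, with a median of 0.11, Apold1 passing and 4 at an unadjusted p under 0.05.

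Clock genes had averaged medians close to that of all genes, from medians above 0 at ZT15 and below 0 at ZT3. Of 10 repressors 6 were above 0 with a median of 0.08, and of 10 activators and output genes 4 with a median of -0.06. The repressors had 0.27 at ZT15 (8 of 10 above 0) and -0.10 at ZT3 (4 of 10). The activators and output genes had 0.09 (9 of 10) and -0.15 (2 of 10). No member of either list passed in limma, edgeR or DESeq2. An unadjusted limma p under 0.05 was found in 2 repressors and 1 activator or output gene, against 7.74% of all genes. Among the repressors, Per1 had the highest averaged change, 0.66 ± 0.20 (limma adjusted p = 0.202). Nr1d1 (Rev-erb alpha) had the lowest, -0.36 ± 0.13 (adjusted p = 0.362), and Per2 had 0.28 ± 0.19 (adjusted p = 0.904).

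For fuel storage and use, list medians near 0 in the average came from medians above 0 at ZT15 and below 0 at ZT3, which for lipogenesis were only 0.02 and -0.01. Over all genes, 49.1% were above 0 in the average, 8231 of 16233 at ZT15 and 8412 at ZT3. Fatty acid oxidation had a median of 0.21 at ZT15 (25 of 26 above 0) and -0.08 at ZT3 (3 of 26), lipolysis 0.19 (17 of 21) and -0.11 (3 of 21), glucose use 0.11 (21 of 25) and -0.07 (10 of 25), and insulin signalling 0.05 (13 of 19) and -0.06 (7 of 19). Averaged over both times, lipolysis and lipid droplet genes had 12 of 21 above 0 and a median of 0.02, lipogenesis 13 of 22 and 0.01, fatty acid oxidation 22 of 26 and 0.05, glucose use 16 of 25 and 0.04, and insulin signalling 7 of 19 and -0.01. None of these passed in limma, and 2, 2, 1, 3 and 2 members had an unadjusted p under 0.05, against 7.74% of all genes. edgeR also called none of them, and the calls of DESeq2 included Irs2, an insulin receptor substrate with an averaged change of 0.83, named after its values were seen. Lipe, hormone-sensitive lipase, was at an averaged 0.04 ± 0.12, Pnpla2, the triglyceride lipase ATGL, at 0.01 ± 0.14, and Fasn, fatty acid synthase, at -0.02 ± 0.26 (adjusted p = 1 for each). Lipe and Pnpla2 were lowest of their groups in library 5 of ZT15 SED and library 4 of ZT3 RUN, both high in Cd79a. Fasn was highest of its group in the former and lowest in the latter. The part of these libraries in the list medians was not tested. Pdk4, which blocks pyruvate oxidation, had 0.70 ± 0.24 (adjusted p = 0.289), nearly all of it at ZT15, with 1.34 at ZT15 and 0.06 at ZT3. With quantile normalization the medians of glucose use, lipolysis and lipogenesis went to 0 or below, and centring on the library median moved insulin signalling to 0.01, so no direction is given for these lists.

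Respiratory chain genes were narrowly grouped, with 31 of 34 above 0, a median of 0.04 and a highest value of 0.11 in the average. By time, 33 of 34 were above 0 at ZT15 (median 0.12) and 6 of 34 at ZT3 (median -0.03). None passed in limma, edgeR or DESeq2 and none had an unadjusted p under 0.05, and the median also went to 0 or below with quantile normalization. Over all genes, 49.1% were above 0 in the average, 8231 of 16233 at ZT15 and 8412 at ZT3, and 7.74% had an unadjusted p under 0.05. Thermogenic genes had 12 of 17 above 0 and a median of 0.05, from 0.31 at ZT15 and -0.18 at ZT3, with none past the threshold in limma, 2 at an unadjusted p under 0.05, and Irf4 called by edgeR and by DESeq2. Ucp1, the uncoupling protein of thermogenic adipocytes, spread from 2.44 to 532 within ZT15 RUN alone and had 0.18 ± 0.95. Ppargc1a, the mitochondrial coactivator, had 0.77 ± 0.34 (adjusted p = 0.571), with 1.37 at ZT15 and 0.16 at ZT3. Within ZT15 RUN, Ppargc1a was at 218 and 111 in libraries 6 and 1, and at 14.9 to 68.8 in the others. Libraries 6 and 1 were also the highest of ZT15 RUN in Ucp1 (526 and 532) and the muscle gene Myh4 (22113 and 8995). The part of these libraries in the Ppargc1a change was not tested. Among 12 adipokines 5 were above 0, with none past the threshold in limma, edgeR or DESeq2 and 2 at an unadjusted p under 0.05. Adipoq, adiponectin, had -0.02 ± 0.16 and Lep, leptin, -0.13 ± 0.29 (adjusted p = 1 for each).

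Defining markers of the tissue were present in every group. Beside the marker counts, 49.1% of all genes were above 0 in the average, 8231 of 16233 at ZT15 and 8412 at ZT3. Adipocyte markers summed to 32131 to 48716 in ZT15 RUN, 20998 to 40001 in ZT15 SED, 16336 to 39847 in ZT3 RUN and 30034 to 37299 in ZT3 SED, with 8 of 14 above 0 and a median change of 0.03, from 0.20 at ZT15 and -0.10 at ZT3. Lymphocyte markers had 1 of 20 above 0 and a median of -0.32, from -1.56 at ZT15 and 0.80 at ZT3. They summed to 71.8 to 190 in ZT15 RUN, 112 to 1947 in ZT15 SED, 86.1 to 2888 in ZT3 RUN and 112 to 139 in ZT3 SED. Without the 3 libraries high in Cd79a the median was -0.09. Skeletal muscle markers had 10 of 16 above 0 and a median of 0.22, from 0.78 at ZT15 (16 of 16 above 0) and -0.41 at ZT3 (0 of 16), with sums of 239 to 51936 in ZT15 RUN, 91.0 to 46561 in ZT15 SED, 487 to 14278 in ZT3 RUN and 117 to 19989 in ZT3 SED.

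All 12 markers of Schwann cells and nerve had an averaged change above 0 (49.1% of all genes). Their median was 0.29, or 0.37 at ZT15 and 0.17 at ZT3. None passed in limma, edgeR or DESeq2, and 4 had an unadjusted p under 0.05 (7.74% of all genes). Among these 4 were Mbp, Sox10 and Ncmap, with 0.37, 0.35 and 0.39. Sums of the 12 markers were 349 to 614 in ZT15 RUN, 279 to 395 in ZT15 SED, 217 to 550 in ZT3 RUN and 294 to 441 in ZT3 SED. Their median was 0.30 without the 3 libraries high in Cd79a. Macrophage markers had a median of -0.03 and preadipocyte markers of 0.07. With lymphocyte and muscle scores in the model all 23 genes passed, among 128 calls. The part of Schwann cells and nerve in the called genes was not tested.

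Without those 3 libraries 1 gene passed, Ccdc142, a coiled-coil protein gene with a change of -0.39 (adjusted p = 0.0375), which was -0.33 in all 24 libraries (adjusted p = 0.0994). The 23 genes all kept their sign and an unadjusted p under 0.05 there, with adjusted p-values from 0.0555 to 0.0859. The correlation of the ZT15 change with the ZT3 change over all genes, which are not independent replicates, was -0.30 (Pearson) with all libraries and 0.35 without these 3.

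Single libraries decided how many genes passed. In 16 of the 24 fits that each left out 1 library, 0 genes passed in limma, with a smallest adjusted p between 0.0502 and 0.0889 and 1042 to 1285 genes at an unadjusted p under 0.05. The fit without library 1 of ZT3 SED called 165, without library 1 of ZT3 RUN 114, without library 3 of ZT15 RUN 104 and without library 4 of ZT3 RUN 71. Leaving out library 6 of ZT15 RUN gave 16, library 5 of ZT15 SED 10, library 6 of ZT3 RUN 9 and library 6 of ZT15 SED 1. Each of the 23 genes kept its sign in all 24 fits, passed in 4 to 8 of them, and had an adjusted p of at most 0.113.

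**Figure D5:**
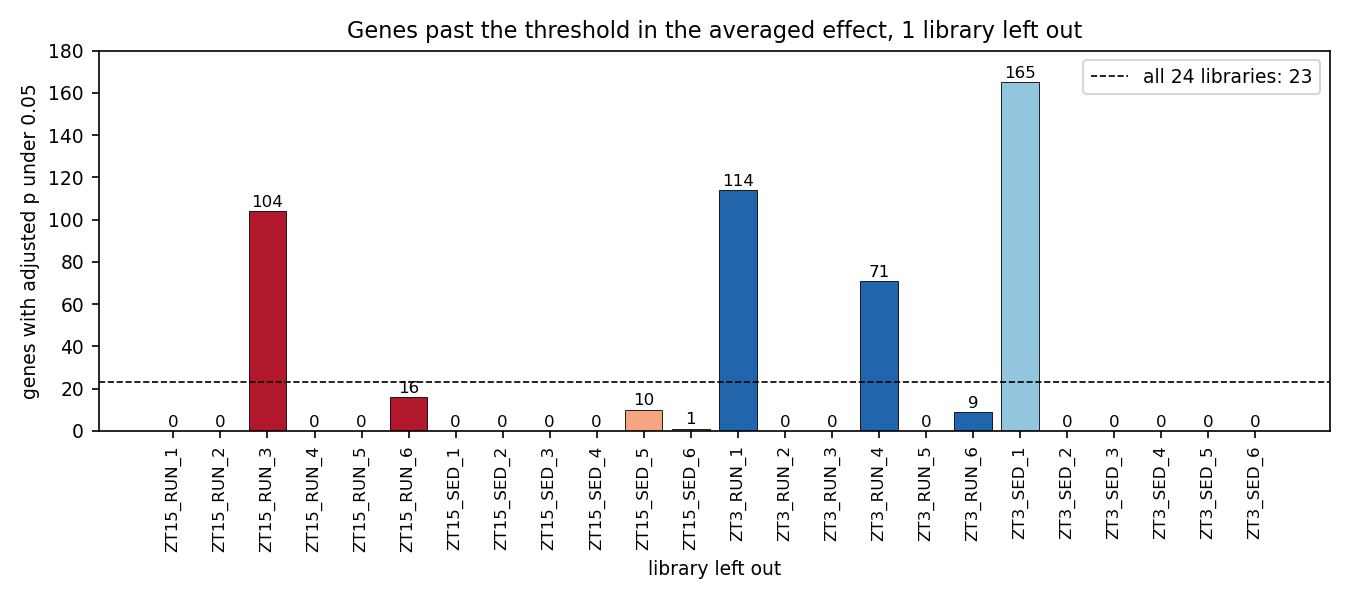
Number of genes past an adjusted p of 0.05 in the averaged effect when each of the 24 libraries is left out in turn (bars, from 0). Bars of 165 and 114 belong to library 1 of ZT3 SED and library 1 of ZT3 RUN, and 16 libraries have no bar, meaning that 0 genes passed.

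The library labelled ZT3 SED 1 was the highest sedentary library at ZT3 in 19 of the 20 higher genes, against 17.5% of all genes. The library labelled ZT3 RUN 1 was the lowest exercised library at ZT3 in 15 of the 20, against 10.5% of all genes. Without the sedentary one, the adjusted p was 0.00354 for Sik1 and Apold1, 0.0073 for Errfi1 and 0.0131 for Ppid. These libraries were picked out by their values, so the fits without them describe the data and are no separate evidence.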

How the data were processed

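RNA was sequenced from inguinal white adipose tissue of 24 mice, 6 in each of 4 groups. The authors deposited a table of normalized signal for 16233 genes. Per the submitters' processing notes, the tools were STAR, Subread 1.6.2 with featureCounts, and limma 3.48.3. The genome build, annotation, strand setting and filter on low genes are not named by the labels or the header. The deposited values equal CPM after TMM scaling: dividing by the step of a single read gave whole reads for 100% of values within 0.01 of a read. Groups came from the labels. No pair of the 276 pairs of libraries agreed within sampling noise (lowest chi-square per degree of freedom 21.9).

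The planned test for normalized values was used: limma 3.58.1 in R 4.3.3 (lmFit, eBayes with an intensity trend) on log2(signal + 1), with 4 group means over all 24 libraries and Benjamini-Hochberg adjustment over all genes at 0.05. The averaged effect is the mean of the RUN minus SED differences at ZT15 and ZT3. All adjusted p-values are from this fit unless another tool is named. The script was tested on simulated data. Alternatives included DESeq2 1.42.0 and the quasi-likelihood test of edgeR 4.0.16, both run on the recovered whole reads.

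Named genes were all called genes with a descriptive symbol, the 5 next by p, the 10 of smallest larger p at both times, the 5 of smallest interaction p, up to 4 passing or the 2 most abundant members of each of 33 lists, and a set of 16 exercise, clock and adipose genes. Others, such as the unadjusted list members, were chosen after their values were seen. The members and lists were chosen with earlier results of these data known. Ensembl IDs of all genes matched the name table. A few single-gene results are not reported here.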

Additional observations from a re-analysis of the deposited data

Results flagged for a closer look

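In 64 groups of 6 libraries of the 16 named called genes, 8 had a highest or lowest library whose gap to the nearest other library, over the range of the group, was above Dixon's critical value for 6. That value is set to flag about 1 in 20 groups of independent, normally distributed values. The groups here share libraries and hold signal without a log, so that rate is no baseline for the 8. Library 1 of ZT3 SED accounted for 4 of them, as the highest of its group: Apold1 at 44.9 (next 18.5), Sik1 at 120 (next 63.6), Vdr at 5.50 (next 0.909) and Paqr3 at 6.37 (next 4.04). Fzd5 was at 29.5 in library 6 of ZT15 SED (next 21.1), Letm2 at 29.0 in library 5 of ZT3 RUN (next 17.3) and Dusp1 at 166 in library 1 of ZT15 RUN (next 106). Ist1 was lowest in library 3 of ZT15 RUN, at 92.1 (next 103).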

How the results depend on the processing

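In the averaged effect 23 genes passed. The count was 8 with quantile normalization, 15 without the 25% of genes of lowest expression, 187 with array weights, 128 with lymphocyte and muscle scores as covariates, 1 without the libraries high in Cd79a, 193 in DESeq2 and 94 at an adjusted p of 0.1. Without an interaction term 0 passed (smallest adjusted p 0.0984, 1209 genes at an unadjusted p under 0.05). Apart from the replicate block given below, the count in the other settings was between 16 (runs of 8 title numbers as a block) and 29 (pseudocount of 0.1), with 27 in edgeR, where 21 of the 23 passed. Leaving out each library gave 0 to 165. Higher genes made up 87.0% of the calls, 87.5% with quantile normalization and 91.7% with centring on the library median. The share was smaller in DESeq2 (80.3%), with lymphocyte and muscle scores as covariates (68.0%) and with array weights (67.4%). The 1 gene called without the libraries high in Cd79a was lower. For the interaction DESeq2 called 239 genes and every other setting 0, and for a change at both times every setting called 0. Over the 16 named called genes and all alternatives, leaving out libraries included, 248 values kept their call, 374 lost it, and none changed sign. The cause of these differences was not tested.

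Neighbouring title numbers join 1 RUN and 1 SED library of a time. With them as a replicate block 0 genes passed (smallest adjusted p 0.0803, 1298 genes at an unadjusted p under 0.05). Deviations from the group means were correlated above 0.1 in 8 of the 12 pairs (median 0.28, from -0.53 to 0.86, over 2000 genes, against a median of -0.03 for other pairs across groups), and 9 of 24 libraries were closest to their own pair. This is a hint of pairing from the data. The labels give the numbers no meaning, and the fit without the block was kept because it was the planned one. Whether the mice were paired cannot be settled from these values, and the 23 calls do not hold with the block.

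Depth limits low genes most: 1 read is a visible step in Gm37294, which had 0 to 21 reads per library.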

Other observations

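Extracellular matrix genes had opposite medians at the 2 times, 0.26 at ZT15 and -0.19 at ZT3, which averaged to 0.01 with 13 of 24 above 0. Ccn1 and Thbs1, matricellular proteins, had averaged changes of 0.64 and 1.02, the 2 members with an unadjusted limma p under 0.05. Interferon-stimulated genes ran the other way, with -0.17 at ZT15 and 0.25 at ZT3, a median average of 0.00 and 10 of 20 above 0. The lymphocyte markers had the same order of signs as the interferon list, and their part in this was not tested. Matrix genes Col3a1 and Sparc were lowest of their groups in library 5 of ZT15 SED and library 4 of ZT3 RUN. Col3a1 was at 2005 and 3675 there, and Sparc at 1208 and 1262. Both libraries were high in Cd79a. Library 3 of ZT15 SED, also high in Cd79a, was the highest of its group in both genes. The part of these libraries in the matrix medians was not tested. Cytokine and NF-kB genes had 11 of 21 above 0 and a median of 0.01, with Nfkbia, an inhibitor of NF-kB, at 0.62 and Nfkbiz at 0.50.

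Genes of the unfolded protein and integrated stress response had 15 of 21 above 0 and a median of 0.09, with Sesn2 at 0.83 and Atf4 at 0.24. Kruppel-like factors had 10 of 14 above 0 and a median of 0.10, and Klf10, at -0.32, was the only member with an unadjusted p under 0.05. No member of these 5 lists passed in limma or edgeR, and DESeq2 called Thbs1 and Sesn2. An unadjusted limma p under 0.05 was found in 2 matrix, 0 interferon, 2 cytokine, 3 stress response and 1 Kruppel-like gene. Over all genes, 7.74% had such a p and 49.1% an averaged change above 0. Median changes of the remaining cell type lists were 0.04 for brown or beige adipocytes, 0.06 for smooth muscle and pericytes, 0.03 for skin and mammary epithelium (6 of 10 markers tested) and 0.01 for blood cells. With quantile normalization the medians of the matrix and cytokine lists were -0.04 and -0.01. Members other than those most abundant in a list were named after their values were seen.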
